A study of Rattus norvegicus with 99 samples.

Results

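The interventricular septum (Spt) was compared with the free wall of the left ventricle (LV) in sham-operated rats by mRNA sequencing of whole tissue, with both pieces taken from the same heart. The comparison holds 22 of the 99 libraries of the series, 1 LV and 1 Spt library from each of 11 of the 12 shams. All rats were males of the first generation of a cross of female Wistar Kyoto with male Lewis rats, and the labels name no engineered allele. The 6 young shams (Sham-H) were 11 weeks old and 7 weeks past surgery, the age of the compensated stage. The 5 older shams were the age controls of decompensated disease, namely 2 Sham-RF animals (27 weeks old, 21 weeks after surgery) matched to failure after banding of the pulmonary artery (PAB) and 3 Sham-LF animals (30 weeks old, 24 weeks after surgery) matched to failure after banding of the aorta (AOB). These ages are those listed per sample, and other text of the study gives other ages. The shams underwent a sham operation, and no drug is named. P-values weigh the septum minus LV difference against its spread from animal to animal.

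Sham-H replicate 6 was left out because its ventricle labels are in doubt. Over the 50 genes with the largest median RV minus LV difference in the other 11 shams, its difference was -0.912 times theirs, whereas the 11 animals gave 0.388 to 1.34 times the median of the rest. The animals were thus chosen by LV and RV values, and no septal value was used. Counts below of animals with the LV above or below the RV rest on that choice.

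The septum is the muscular wall that both ventricles share. In development its cells come from both ventricular fields, it carries the upper bundle branches of the conduction system beneath its endocardium, and unlike the free walls it has no epicardial surface. Its faces border both ventricular cavities, and the pieces sequenced hold muscle together with vessels, fibroblasts, nerves and resident immune cells.

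Total counts ranged from 14.9 to 19.4 M per LV library and from 12.1 to 22.1 M per Spt library. The library numbers in the labels fall in 3 runs, called library series here, and for 9 of the 11 shams the Spt library belonged to a later series than the LV library. Chamber and library series are therefore largely confounded in the shams. For this reason the same contrast was also fitted in the 8 animals with both libraries in one series (Sham-H replicates 5 and 7, and 6 compensated banded animals) and in 12 banded animals of the compensated stage (6 PAB-H and 6 AOB-H, 11 weeks old), whose clips did not constrict when placed and came to do so as the animals grew. PAB-H replicate 2 and AOB-H replicate 1 were left out of those fits for doubtful ventricle labels. All levels below are CPM (counts scaled to a common library size) after trimmed-mean scaling over the series, fold changes are Spt over LV on the log2 scale from a negative binomial fit with the animal as a block, and a gene is called at an adjusted p under 0.05.

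Few genes were called between the septum and the LV. Of 11050 genes tested in the shams, 126 were higher in the septum (1.14%) and 139 were lower (1.26%), together 2.4% of those tested. An unadjusted p under 0.05 in edgeR's quasi-likelihood test was reached by 1696 genes, where 552 would arise by chance. With library series as a covariate 0 genes were called, although 1172 had an unadjusted p under 0.05. Dropping single animals gave between 73 (without Sham-RF replicate 2) and 658 calls (without Sham-H replicate 5). Of the 126 and 139 genes, 66 and 50 had the same direction in all 11 animals. The changes were mostly small, with a median of 0.34 among the genes that were higher and -0.45 among those that were lower. Only 10 genes, 0.0905% of those tested, had LV and Spt values that did not overlap across the 11 animals. Among them Irx2, Penk, Prrc2c, Zfp292 and Baz2b were above the LV and Dpep1, Bmper and Dok2 below it with a call, and Tgs1 was above the LV without passing the test (adjusted p = 0.0643).

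Within one library series, 10 genes were higher (0.0898% of 11136) and 13 lower (0.117%), together 0.207%. In the 12 compensated banded animals these counts were 24 (0.216%) and 33 (0.297%), together 0.513%, and in the 6 of them with both libraries in one series 90 (0.807%) and 105 (0.941%), together 1.75%. All 10 genes higher within one series were also called in the shams, as were 8 of the 13 lower ones. The 10 included Irx2, Penk, Rec114, Irx1, Nrn1, Fcgbp, Dusp26, Pllp and Syndig1, and the 8 included Slc9a2, Aldh1a2, Clec11a, Dpep1, Reln, Col3a1 and Steap2. Both fits include Sham-H replicates 5 and 7.

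The 6 banded animals with both libraries in one series share no animal with the shams. There, 119 of the 126 genes higher in the sham septum had the same sign (94.4%, against 48.8% of all genes tested) and 16 were called. Of the 139 lower genes 138 could be tested, 135 had the same sign (97.8%, against 51.2%) and 31 were called. The sizes were smaller there, with medians of 0.11 and -0.23. These genes had been picked by their sham values, and banding differs between the sets as well, so the sizes are given as a description.

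**Figure D1:**
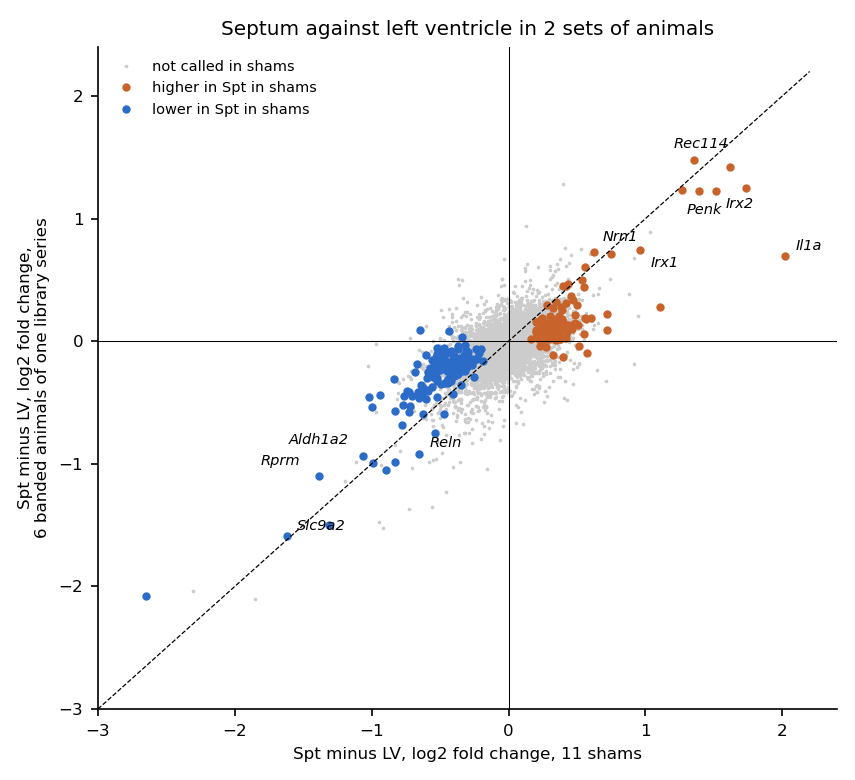
Log2 fold change of septum over LV in the 11 shams (x axis) against that in 6 compensated banded animals whose LV and Spt libraries were of one series (y axis). Each point is a gene, coloured where it was called in the shams, and the dashed line marks equal values. Irx2, Penk, Rec114 and Slc9a2 lie near the line, whereas Il1a (2.02 in shams, 0.69 in banded animals) and most small sham differences lie closer to 0 on the y axis.

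A pair of neighbouring homeobox genes, Irx2 and Irx1, were among the genes highest in the septum. Iroquois homeobox factors pattern the heart and other tissues of the embryo, and Irx2, Irx1 and Irx4 lie side by side on chromosome 1 of the rat assembly GRCr8. The bases that precede the annotated starts of Irx1 and Irx2 are shown because both neighbours were called (RefSeq, GRCr8, 250 bases upstream of the start, 5′ to 3′ on the gene's strand). They lie at chr1:33122872-33123121 on the plus strand and chr1:32494931-32495180 on the minus strand of GRCr8, a build other than that of the counts. Capitals mark GC boxes (GGGCGG) and E-boxes (CANNTG), searched on both strands, and no marked stretch overlaps another.
Irx1: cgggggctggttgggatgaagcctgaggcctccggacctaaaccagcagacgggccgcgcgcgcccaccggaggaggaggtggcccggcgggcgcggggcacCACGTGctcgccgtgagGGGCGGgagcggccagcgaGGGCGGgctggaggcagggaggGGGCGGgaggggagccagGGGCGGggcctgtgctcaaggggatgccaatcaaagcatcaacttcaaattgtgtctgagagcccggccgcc
Irx2: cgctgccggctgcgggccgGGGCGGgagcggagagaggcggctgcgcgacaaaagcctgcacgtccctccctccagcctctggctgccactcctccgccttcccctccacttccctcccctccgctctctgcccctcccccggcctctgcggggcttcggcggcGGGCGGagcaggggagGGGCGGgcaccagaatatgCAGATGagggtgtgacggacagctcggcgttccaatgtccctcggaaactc
The Irx1 sequence holds 4 GC boxes and 1 E-box, and the Irx2 sequence 3 GC boxes and 1 E-box. Among the 33469 RefSeq promoters, 30.5% hold a GC box and 65.5% an E-box in a window of this length. Neither window holds a TATA box (TATAAA), found in 12.9% of promoters, and neither holds the GATA factor motif AGATAA, found in 10.3%.

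Irx2 stood at 2.34 to 7.58 CPM (median 5.17) in the 11 LV libraries and 11.1 to 23.8 CPM (median 13.9) in the 11 Spt libraries. The 2 ranges did not overlap, and the septum was higher in every animal, by 1.51 ± 0.15 (SE, adjusted p = 4.44e-04), a 2.85-fold difference. Within one series the difference was 1.35 (adjusted p = 0.00534). Irx1 stood at 2.94 to 7.51 CPM (median 5.18) in LV and 5.98 to 16.9 CPM (median 9.22) in septum. It was higher in the septum in 11 of 11 animals with overlapping ranges, by 0.96 ± 0.13 (SE, adjusted p = 0.00467), and by 0.87 within one series (adjusted p = 0.0441). Their neighbour Irx4, a marker of ventricular identity, gave 0.10 (adjusted p = 0.628), and the other Iroquois genes tested, Irx3 and Irx5, gave 0.24 and 0.15 (adjusted p = 0.282 and 0.654).

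Penk encodes proenkephalin, the precursor of the enkephalin opioid peptides, and was the most abundant of the genes with a large septal difference. It stood at 94.1 to 195 CPM (median 141) in LV and 267 to 653 CPM (median 340.1) in septum. The lowest septum was above the highest LV, and the difference was 1.39 ± 0.11 (SE, adjusted p = 1.10e-04), or 2.62-fold. It was 1.36 within one series and 1.23 in the 6 banded animals of one series (adjusted p = 0.00559 and 8.07e-04).

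For Irx2, Irx1 and Penk the right ventricle (RV) lay below both other chambers. The mean Irx2 level was 1.43 ± 0.620 CPM in RV against 5.15 ± 1.67 CPM in LV and 14.3 ± 3.53 CPM in septum (SD, n = 11). Penk averaged 46.6 ± 18.8 CPM, 138 ± 35.0 CPM and 359.9 ± 103 CPM in the same order, and Irx1 1.27 ± 0.614 CPM, 5.21 ± 1.58 CPM and 9.97 ± 2.66 CPM. The order septum, LV, RV held in 11 of 11 animals for each of the 3. Its LV above RV part rests on animals chosen by their LV and RV values, so it gives no support of its own. The septum was above both free walls in 11 of 11 animals, and so was not between them for these genes.

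The animal left out had another order. In Sham-H replicate 6 the library labelled LV held 0.803 CPM of Irx2 and that labelled RV 9.33 CPM, and for Penk these were 32.8 and 128 CPM. Its septum held 9.00 CPM of Irx2 and 123 CPM of Penk, both below every septum of the 11. When it was kept under its labels, 28 genes were called higher and 96 lower in place of 126 and 139.

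**Figure D2:**
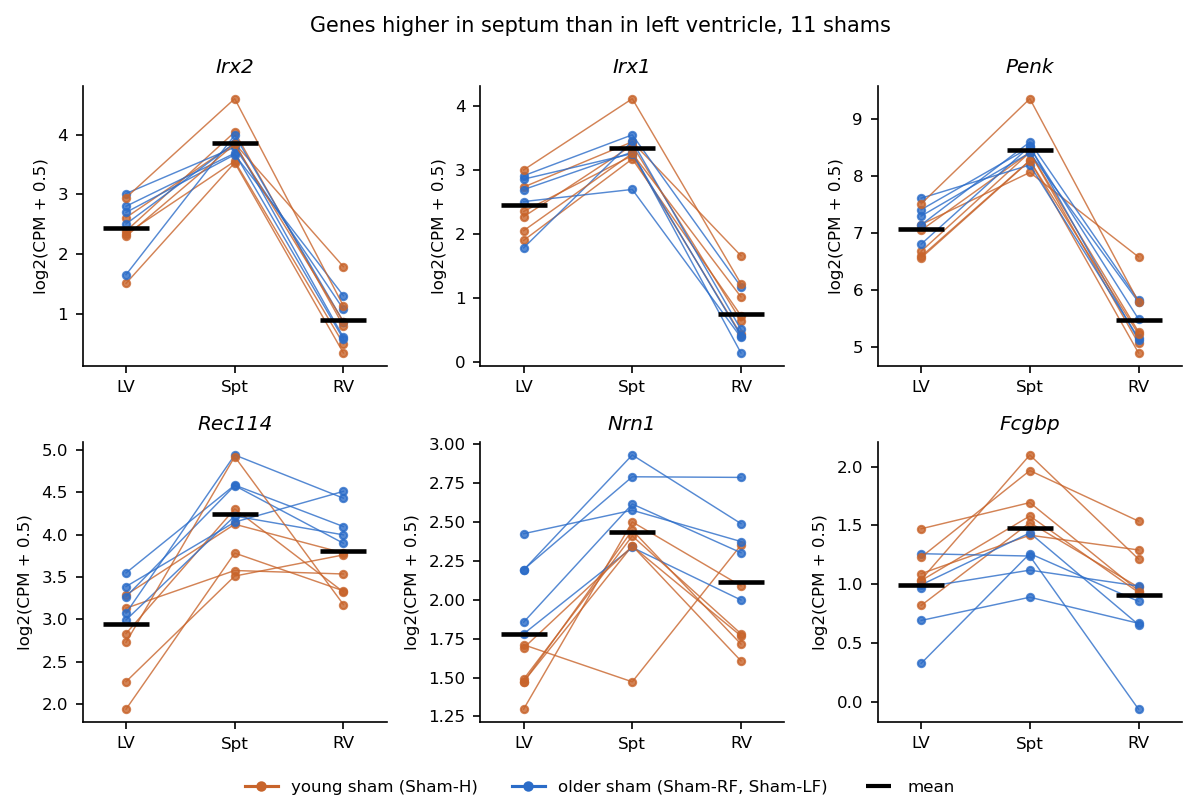
Level of 6 genes called higher in the septum, as log2(CPM + 0.5), in the LV, Spt and RV of each of the 11 shams, with lines joining the libraries of 1 animal and black bars at the means. For Irx2, Irx1 and Penk the septum is highest and the RV lowest in all 11 animals, for Rec114 and Nrn1 the LV is lowest in most, and for Fcgbp the septum is above the RV in all 11.

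Rec114 and Nrn1 had another order, with the LV lowest. Rec114, which encodes a protein of meiotic recombination, stood at 3.33 to 11.2 CPM (median 7.91) in LV and 10.9 to 30.2 CPM (median 18.1) in septum. It was higher in the septum in 11 of 11 animals, by 1.36 ± 0.15 (SE, adjusted p = 0.00126), and by 1.63 within one series (adjusted p = 0.00534). The RV averaged 14.1 ± 4.55 CPM and was above the LV in 11 of 11 animals and below the septum in 9. Rec114 lies between Nptn and the pacemaker channel gene Hcn4 in GRCr8, and whether reads of these genes could be shared was not tested. Nptn gave 0.05 and Hcn4 0.45 (adjusted p = 0.687 and 0.672). Nrn1, encoding the neurite growth protein neuritin, stood at 1.96 to 4.87 CPM (median 2.77) in LV and 2.28 to 7.12 CPM (median 4.95) in septum, higher in 10 of 11 animals by 0.75 ± 0.13 (SE, adjusted p = 0.0151).

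Smaller rises were also called within one series. Fcgbp, encoding a mucin-associated IgG-binding protein, was higher by 0.62 ± 0.14 (SE, adjusted p = 0.0352) in shams and by 0.74 within one series. Dusp26, a dual-specificity phosphatase, was higher by 0.56 ± 0.12 (SE, adjusted p = 0.0305) and by 0.70. Each was higher in the septum in 10 of 11 animals. Their calls in the shams, unlike those of Irx2, Irx1, Penk, Rec114 and Nrn1, were lost when single animals were left out, with adjusted p up to 0.0852 for Fcgbp and 0.0847 for Dusp26.

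Other large rises in the shams were not called within one series. Il1a, the gene of the cytokine interleukin-1 alpha, had 0 to 18 counts per LV library and 3 to 73 per Spt library, and rose by 2.02 ± 0.25 (SE, adjusted p = 0.00198). Within one series it gave 0.85 (adjusted p = 0.263), and the RV exceeded the LV in 11 of 11 shams. Fancb, of the Fanconi anaemia DNA repair complex, rose by 0.72 in shams and gave 0.25 within one series. Pnisr, which encodes a splicing-associated protein, rose by 0.56 and gave 0.22, Rbm41 by 0.52 and 0.05, and Prrc2c by 0.49 and 0.20 (adjusted p from 0.179 to 0.714 within one series for these 4). Mybpc2, encoding a fast-type myosin-binding protein C, rose by 0.54 in shams, gave 0.39 within one series (adjusted p = 0.206) and was called in the 6 banded animals of one series (0.50, adjusted p = 0.0483). For 9 of the 11 shams chamber and library series cannot be told apart.

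Aldh1a2 encodes the enzyme that makes retinoic acid and is a marker of epicardium and mesothelium. It stood at 4.11 to 7.90 CPM (median 6.46) in LV and 2.09 to 4.13 CPM (median 3.13) in septum, just overlapping, and was lower in 11 of 11 animals, at -1.06 ± 0.12 (SE, adjusted p = 0.00145). The RV level of 5.60 ± 1.98 CPM was above the septum in 10 of 11. Slc9a2, a sodium-proton exchanger, was lower in 11 of 11 animals, at -1.62 ± 0.19 (SE, adjusted p = 0.00145), with 16 to 47 counts per LV library and 2 to 20 per Spt library. It gave -1.71 within one series and -1.59 in the 6 banded animals of one series (adjusted p = 0.0109 and 0.0134). Its RV mean of 1.54 ± 0.627 CPM lay near the LV mean of 1.64 ± 0.604 CPM.

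Rprm, a p53-induced cell-cycle arrest gene, was low, with 10 to 32 counts per LV library and 2 to 13 per Spt library. It fell by 1.38 on the log2 scale in the sham septum (adjusted p = 0.00509), and gave -1.23 within one series (adjusted p = 0.0696). Reln, which encodes the secreted protein reelin and is made by lymphatic endothelium, was lower, at -0.65 ± 0.13 (SE, adjusted p = 0.0201) in shams and -0.92 within one series (adjusted p = 0.00561). Without Sham-LF replicate 3 its adjusted p in the shams was 0.0526. Dpep1, a membrane dipeptidase, stood at 16.9 to 29.5 CPM (median 21.6) in LV and 8.98 to 16.0 CPM (median 14.2) in septum with no overlap, a difference of -0.77 ± 0.10 (SE, adjusted p = 0.00246). Bmper, an extracellular regulator of BMP signalling, did not overlap either and was lower, at -0.65 ± 0.10 (SE, adjusted p = 0.00935), with -0.47 within one series (adjusted p = 0.0682). Clec11a, a secreted growth factor of bone and marrow, was lower, at -0.78 in shams and -0.68 within one series (adjusted p = 0.014 and 0.0441). Steap2, a metalloreductase, gave -0.47 and -0.65 (adjusted p = 0.0494 and 0.0109), and its sham call was lost without any of 9 of the 11 animals (adjusted p up to 0.109).

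The remaining large falls did not pass within one series. They were Lck, a kinase of T cells (-0.76 in shams, -0.43 within one series), Tmem200c (-0.74 and -0.44), Atp6ap1l (-0.72 and -0.47) and Il20rb, a cytokine receptor subunit (-0.70 and -0.56). All 4 kept their sign. Without Sham-H replicate 5, a setting chosen after the data were seen, Lck and Atp6ap1l were called within one series (adjusted p = 0.0345 and 0.0232). Tmem200c and Il20rb were not (adjusted p = 0.0889 and 0.174).

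**Figure D3:**
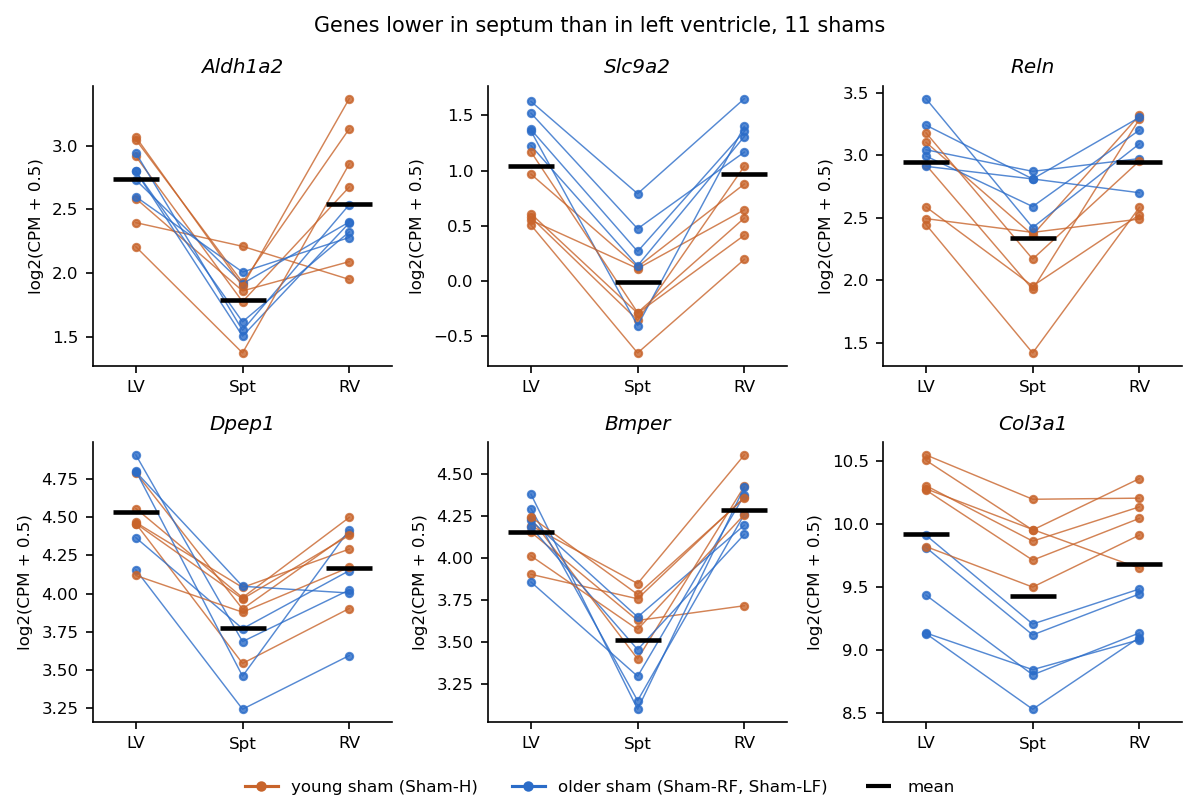
Level of 6 genes called lower in the septum, as log2(CPM + 0.5), in the LV, Spt and RV of each of the 11 shams, with lines joining the libraries of 1 animal and black bars at the means. The septum is below the LV in all 11 animals for each gene, and for Slc9a2 and Reln the RV mean is close to the LV mean.

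Gene lists by role were then read. Each list is read against all 11050 genes tested, whose median was 0.01 in the shams and -0.01 within one series. Of all genes tested in each fit, 51.9% had a positive sign in the shams and 47.4% within one series. In the shams 1.14% were called higher and 1.26% lower. Of the 53 called genes that the naming covers, 26 kept their sham call whichever animal was left out and 27 lost it at least once. Among those described below, the calls of Heyl, Nebl, Sox10, Cadm4, Pdpn, Col6a2, Pdgfra, Tcf21, Cd68, Cd163, Cd3g, Cd4 and Pfkfb2 were lost at least once, as were those of Mybpc2, Rbm41, Prrc2c, Lck and Il20rb above, with the highest adjusted p between 0.065 (Col6a2) and 0.124 (Cadm4). In whole tissue, fewer cells of a type and less RNA per cell cannot be told apart.

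The chamber-patterning factors did not move as a group. Of 17 tested in the shams, Irx2 and Irx1 were higher, Heyl, a Notch target, was lower, at -0.27, and 14 were not called, with a median of -0.01. Nkx2-5, Gata4, Hand2 and Tbx5, core factors of the cardiac programme, gave -0.01, -0.15, -0.15 and -0.32 (adjusted p from 0.484 to 0.979).

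Few muscle genes were called. Of 22 sarcomere genes 2 rose, none fell and 21 had a positive sign, with a median of 0.12 in shams and 0.15 within one series. Myh7, the slow beta-myosin heavy chain, stood at 4394 to 8226 CPM (median 5792) in LV and 4746 to 11209 CPM (median 7474) in septum and was higher in 10 of 11 animals by 0.40 ± 0.09 (SE, adjusted p = 0.044). Within one series it gave 0.35 (adjusted p = 0.222), and in the 6 banded animals 0.45 (adjusted p = 0.0079). The sham call was lost when any of 9 of the 11 animals was left out. Without Sham-H replicate 5, a setting chosen after the data were seen, Myh7 was called in both fits. It gave 0.45 in shams and 0.44 within one series (adjusted p = 0.00577 and 0.00174). The fast alpha chain Myh6 gave 0.15 (adjusted p = 0.569). Nebl, encoding the Z-disc protein nebulette, rose by 0.57 in shams and gave -0.04 within one series (adjusted p = 0.724). Of the 6 ventricular muscle markers 1 (Myh7) was called and the median was 0.15. Their summed level ran from 35822 to 50638 CPM in LV and from 42867 to 54122 CPM in septum, so every library carried the defining markers of ventricular muscle.

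Of 9 genes in the wall stress list 3 rose, Penk, Ankrd23 and Xirp2, with a median of 0.23 in shams and 0.19 within one series. Xirp2, an actin-binding protein of the intercalated disc, rose by 0.36 in shams and gave 0.08 within one series (adjusted p = 0.485), and its sham call was lost without any of 9 of the 11 animals. Ankrd23, a titin-associated ankyrin protein, was higher in 11 of 11 animals by 0.49 ± 0.10 (SE, adjusted p = 0.025) and gave 0.19 within one series (adjusted p = 0.35), its sham call being lost without any of 6 animals. The natriuretic peptide genes Nppa and Nppb gave -0.50 and 0.11 (adjusted p = 0.297 and 0.787). Penk stood in this list when it was drawn up with earlier results of these data known, so its call adds nothing independent.

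Conduction genes did not differ detectably in the 11 shams. None of 12 tested was called, with a median of 0.16 and a range from -0.31 to 0.45. Hcn4 was very uneven, at 2.17 to 11.3 CPM (median 6.69) in LV and 2.57 to 18.1 CPM (median 6.82) in septum and higher in 7 of 11 animals. Etv1, a transcription factor of the fast conduction system, was above the LV in 11 of 11 animals without passing the test, at 0.32 ± 0.09 (SE, adjusted p = 0.0852). It was called higher in the 12 banded animals (0.33, adjusted p = 0.0191) and in the 6 of one series (0.31, adjusted p = 0.0488). Within one series it gave 0.37 without a call (adjusted p = 0.169). Without Sham-H replicate 5, a setting chosen after the data were seen, it was called there (adjusted p = 0.0225), with 2 of the 12 genes higher and none lower. Of 10 atrial muscle genes none was called in the shams. Myl7, the atrial myosin light chain, ranged from 3.00 to 163 CPM in LV and from 1.13 to 251 CPM in septum, and the septum was the higher of the pair in 5 animals and the lower in 6 (-0.73, adjusted p = 0.84). Single libraries thus differed widely in this atrial transcript. Myl7 was called lower in the 6 banded animals of one series (-1.37, adjusted p = 0.0365), but not in the 12 banded animals (-0.29, adjusted p = 0.927). Within one series it gave -1.20 (adjusted p = 0.513), and without Sham-H replicate 5 -2.62 (adjusted p = 0.038).

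Of 18 repolarising potassium channel genes none was called in the shams, with a median of -0.13 and 13 below 0. Kcnd2, a pore subunit of the transient outward current, was named after its values were seen. It stood at 9.60 to 21.0 CPM (median 14.1) in LV and 5.52 to 14.7 CPM (median 9.90) in septum and was below the LV in 10 of 11 animals without passing the test, at -0.52 ± 0.13 (SE, adjusted p = 0.0527). Within one series the difference was -0.83 and passed the test (adjusted p = 0.00534). The RV exceeded the septum in 11 of 11 animals. Of 9 sodium channel and connexin genes, Scn3b, a beta subunit, rose by 0.46 in shams (adjusted p = 0.0394) and gave 0.40 within one series (adjusted p = 0.123), its sham call being lost without any of 8 of the 11 animals. Of 14 calcium-cycling genes none was called, with Atp2a2 and Pln, the calcium pump and its inhibitor, at 0.01 and 0.08.

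Some genes of the outer surface of the heart were lower in the septum. Of 8 mesothelial and epicardial genes tested, Aldh1a2 and Rspo1, an activator of Wnt signalling, fell, with a median of -0.83 in shams and -0.77 within one series. The other 6 were not called. Rspo1 gave -0.55 within one series without a call (adjusted p = 0.176), and was called in the 6 banded animals of one series (-0.58, adjusted p = 0.0457). Msln, the mesothelial surface protein mesothelin, stood at 0.574 to 32.3 CPM (median 5.76) in LV and 0 to 4.43 CPM (median 0.880) in septum and was below the LV in 9 of 11 animals, at -2.31 ± 0.71 (SE, adjusted p = 0.114). Krt19, a keratin of mesothelium, was below it in 10 of 11, at -1.85 ± 0.55 (SE, adjusted p = 0.105). Both values pool unlike ages. Msln gave -4.08 ± 0.69 (SE) in young and -0.30 ± 0.70 (SE) in older shams, with a difference of 3.78 that did not pass the correction (adjusted p = 1, unadjusted p = 0.00236 in edgeR's test). Krt19 gave -2.60 and -0.59 (adjusted p = 1 for the difference). Wt1 and Tbx18, transcription factors of the epicardium, gave 0.18 and 0.16. The summed level of the 13 listed genes ran from 44.0 to 115 CPM in LV and from 38.6 to 72.3 CPM in septum, with Calb2 listed at 0.

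Some Schwann cell and lymphatic genes were also lower. Of 9 Schwann cell and neuronal genes 3 fell, among them the neural crest factor Sox10 (-0.60) and the adhesion molecule Cadm4 (-0.62), and the median was -0.36 in shams and -0.35 within one series. Sox10 and Cadm4 gave -0.50 and -0.57 within one series without a call (adjusted p = 0.191 and 0.059). Mbp, a myelin gene, gave -0.83 (adjusted p = 0.0539). Of 6 lymphatic endothelial genes, Reln and Pdpn (-0.37) fell, and Ccl21, the lymphatic chemokine, gave -0.71 (adjusted p = 0.0613). Pdpn gave -0.25 within one series without a call (adjusted p = 0.294). In the 6 banded animals of one series Ccl21 was called at -1.03 (adjusted p = 9.92e-04). Prox1, Lyve1 and Flt4, which define lymphatic endothelium, gave 0.09, -0.17 and -0.11 in shams and -0.54, -0.03 and -0.51 within one series, none of them called. The median of the 6 was -0.27 in shams and -0.53 within one series, where all 6 were below 0.

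Fibroblast and matrix genes were lower in part. Of 9 fibroblast genes 4 fell and all 9 had a negative sign, with a median of -0.29 in shams and -0.05 within one series. Of 24 matrix genes 3 fell, with a median of -0.21 in shams and -0.12 within one series. By age, the fibroblast median was -0.13 in young and -0.44 in older shams, and the matrix median -0.12 and -0.29. These age differences of the lists were not tested. Col3a1, the type III collagen chain, stood at 559 to 1498 CPM (median 962) in LV and 368 to 1173 CPM (median 723) in septum and was lower in 11 of 11 animals, at -0.49 ± 0.06 (SE, adjusted p = 0.00178). With all 8 animals it was the one matrix gene called within one series, at -0.36. Col1a1 and Col6a2 fell by 0.45 and 0.33 on the log2 scale in shams (adjusted p = 0.00709 and 0.0233), and Pdgfra and Tcf21, a receptor and a transcription factor of cardiac fibroblasts, by 0.40 and 0.40. Postn and Fn1 gave 0.10 and 0.07. Of the valve and cartilage list 1 of 6 tested, Prelp, fell (-0.45).

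Of 12 macrophage genes 4 fell in the shams and none was called within one series. All 12 tested had a negative sign with a median of -0.38, and Adgre1, Cd163, Cd68 and Csf1r were called. This median pools unlike ages, with -0.17 in young and -0.59 in older shams. The age difference of the list was not tested, and all older shams had the Spt library in a later series than the LV library. Csf1r, the receptor for macrophage colony-stimulating factor, stood at 49.8 to 86.3 CPM (median 65.6) in LV and 36.8 to 57.4 CPM (median 49.7) in septum and was lower in 11 of 11, at -0.44 ± 0.07 (SE, adjusted p = 0.00892). Within one series the median was -0.14, and Csf1r gave -0.18 (adjusted p = 0.156). Of 5 lymphocyte genes Cd3g and Cd4 fell, with a median of -0.54 in shams. Within one series the median was -0.18 over 4 of them, since Cd3g (-0.85 in shams) did not pass the filter on low counts there, so the 2 medians cover different members.

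Vascular lists were close to the background. Of 11 endothelial and 13 smooth muscle and pericyte genes none was called, with medians of 0.11 and 0.08. Of 5 endocardial genes Plvap, a protein of fenestrated endothelium, fell by 0.72 on the log2 scale (adjusted p = 0.0154), with a higher mean in RV (13.3 ± 4.52 CPM) than in LV (8.12 ± 2.57 CPM) or septum (4.81 ± 1.07 CPM). Plvap gave -0.47 within one series without a call (adjusted p = 0.2). Lists of adipocyte, blood cell, immediate early, heat shock, circadian clock, fatty acid, and angiotensin, endothelin and adrenergic genes held no called member, with medians from -0.22 (blood cell) to 0.07 (heat shock). Within one series these medians ran from -0.26 (angiotensin, endothelin and adrenergic) to 0.30 (blood cell), so that the sign of the blood cell list turned. Hbb, a haemoglobin chain, gave -0.22 in shams and 0.30 within one series (adjusted p = 0.69 and 0.404). Of 18 glucose-use genes Pfkfb2, which sets glycolytic flux, rose by 0.37 in shams and gave 0.04 within one series. Of 15 TGF-beta and BMP genes Inhba, the activin A subunit, rose by 1.11 ± 0.20 (SE, adjusted p = 0.0154) and gave 0.66 within one series (adjusted p = 0.296).

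**Figure D4:**
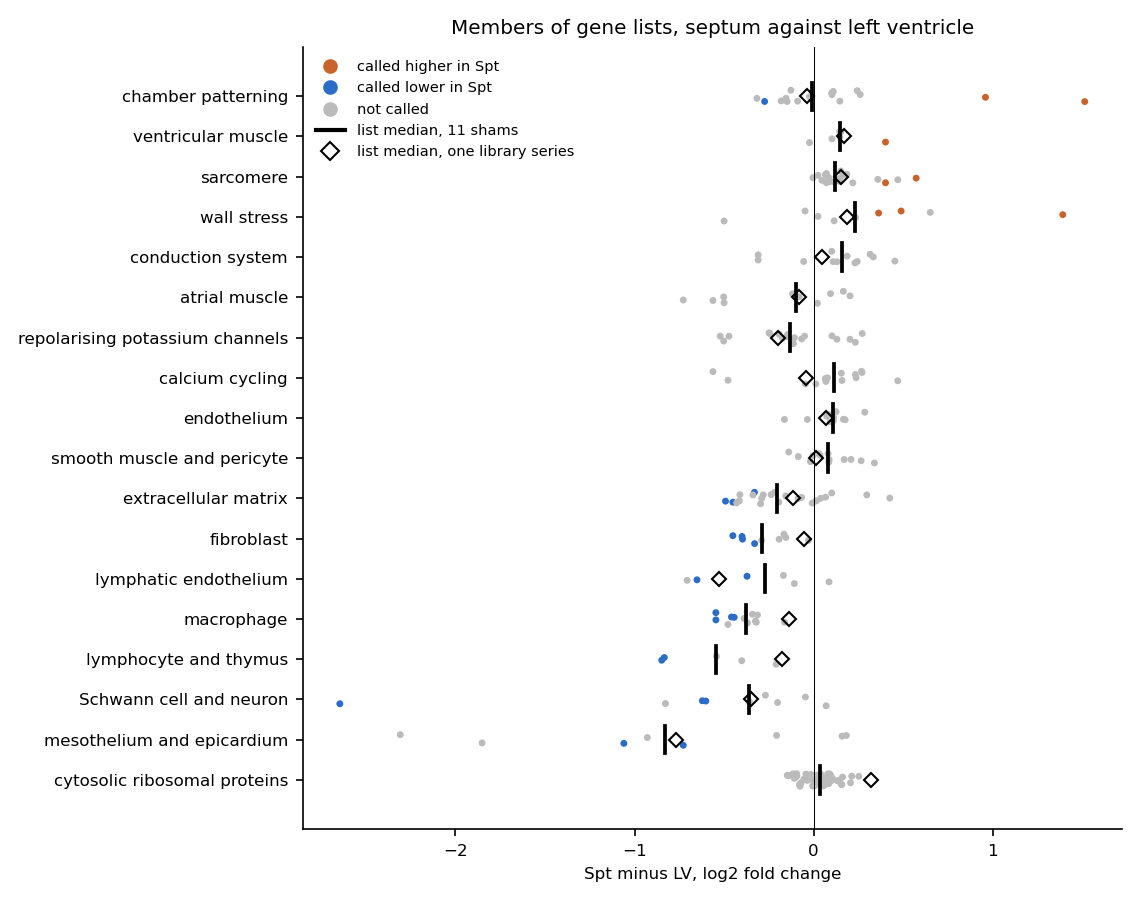
Log2 fold change of septum over LV in the 11 shams for the tested members of 18 gene lists, 1 point per gene, coloured where called. Black bars are list medians in the shams and open diamonds those within one library series. The mesothelial, Schwann cell and lymphatic medians lie below 0 in both fits, while those of macrophages (-0.38 and -0.14) and ribosomal proteins (0.03 and 0.32) differ between the fits.

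No gene was shown to differ with age. With the animal as a block, 0 of 11050 genes differed between older and young shams in their septum to LV difference (edgeR's quasi-likelihood test), 412 had an unadjusted p under 0.05 where 552 would arise by chance, and DESeq2 called 7. The unadjusted count depended on 1 animal. Without Sham-H replicate 5 it was 1456, with 0 genes called. In the 6 young shams 5 genes were higher (0.0452%) and 1 lower (0.00905%), together 0.0543%. In the 5 older shams 37 were higher (0.335%) and 59 lower (0.534%), together 0.869%. Penk gave 1.55 in young and 1.20 in older shams, Irx2 1.66 and 1.33, and Aldh1a2 -0.96 and -1.18. Cd163, a scavenger receptor of tissue macrophages, had the lowest p, with -0.17 in young shams and a further -0.83 in older ones (adjusted p = 0.247 for the difference). All 5 older shams had the LV library in series 2 and the Spt library in series 3, and 2 of the 6 young shams had that layout, so age and layout cannot be fully told apart.

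Gene length moved with the contrast. Relative length is the ratio of the deposited normalised counts to FPKM, available for all 11050 genes. In the shams the median log2 fold change was 0.03 in the shortest of 10 equal bins of genes and 0.07 in the longest, whose typical length was 7.77 times greater. Of the genes higher in the septum 40 lay in the longest bin and 2 in the shortest, and their median length was 1.77 times that of all genes, against 1.08 times for the lower ones. Within one series the medians fell with length, from 0.17 in the shortest bin to -0.08 in the longest. Cytosolic ribosomal protein genes, which are short, had medians of 0.03 in shams and 0.32 within one series, with none of 78 called in either fit, and nuclear respiratory chain genes 0.08 and 0.22 with none of 81 called.

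Single animals differed widely in this trend. The Spearman correlation of the difference with length, given as a description over genes that share 2 libraries, ran from -0.49 in Sham-H replicate 5 to 0.50 in Sham-H replicate 1. In Sham-H replicate 5 the shortest bin was higher in the septum by a median of 0.88 and the longest lower by 0.52. Without this animal 253 genes were higher (2.29%) and 405 lower (3.66%) in the 10 remaining shams, and 209 (1.87%) and 214 (1.92%) in the 7 remaining animals of one series. In that setting, chosen after the data were seen, 32 genes were higher and 89 lower in both fits, 18.4% of the calls in shams and 28.6% of those within one series, and 1 gene was called in opposite directions. Both fits then share Sham-H replicate 7. Against those shares of all genes, 11 of 12 macrophage genes were lower in the 10 shams and 3 within one series, of 9 Schwann cell and neuronal genes 4 and 5, of 8 mesothelial and epicardial genes 4 and 4, and of 9 fibroblast genes 5 and 3. Of 24 matrix genes 6 were lower in the 10 shams and 5 within one series, the latter including Col1a1 and Col6a2. Of 78 cytosolic ribosomal protein genes, 1 was lower in the 10 shams and 28 were higher within one series. Other lists also gained calls within one series. Chamber-patterning genes had 4 of 17 higher and 3 lower there, against 2 and 1 in the 10 shams. Sarcomere genes had 5 of 22 higher there and 2 in the 10 shams, with none lower in either. Immediate early genes had 6 of 24 lower there and 2 in the 10 shams, with none higher. Atrial muscle genes had 1 of 10 higher and 3 lower there, and nuclear respiratory chain genes 12 of 81 higher. Without Sham-H replicate 5, Rprm, Bmper, Pnisr and Mybpc2 were called within one series (adjusted p = 0.015, 0.0096, 0.038 and 0.0365). Il1a, Fancb, Rbm41, Prrc2c and Ankrd23 were still not called there. With the length trend removed from each library, 176 genes were higher and 181 lower in the 11 shams.

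**Figure D5:**
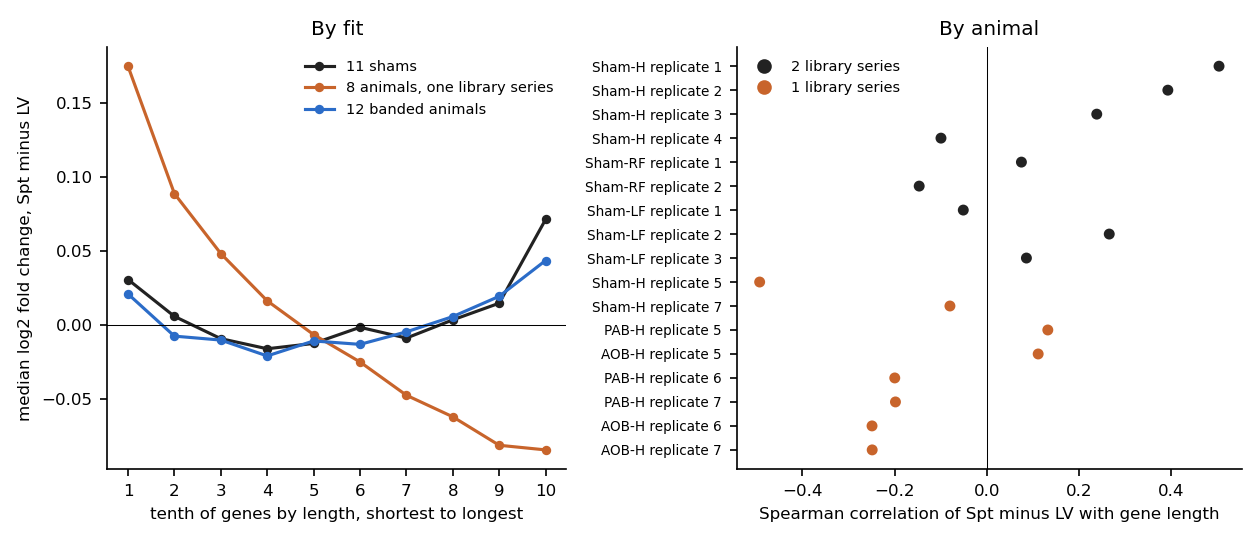
Left, median log2 fold change of septum over LV in 10 equal bins of genes by length, in the 11 shams, the 8 animals of one library series and the 12 compensated banded animals. Right, Spearman correlation of the septum minus LV difference with gene length in each animal, coloured by whether both libraries were of one series. Sham-H replicates 5 and 1 lie at the 2 ends, at -0.49 and 0.50.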

How the data were processed

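RV, LV and septum were separated from hearts of 33 rats, and the authors sequenced polyadenylated RNA on 1 library per chamber and animal. Per the labels the raw counts were made with Trim Galore, STAR and featureCounts, and DESeq2 is named too. The study's methods name the rat build Rnor6.0, a directional library kit and counting without reads that overlap several genes. The strand setting was not given in the sources used here. The deposited table holds raw counts, normalised counts (a signal per gene, counts divided by a size factor per library) and FPKM values for 17337 genes in 99 libraries. The raw counts were tested, and the deposited normalised signal and FPKM served only for relative gene length. No 2 of the 22 libraries held identical counts.

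Genes were kept by filterByExpr and tested by edgeR 4.0.16 (R 4.3.3) with TMM scaling, a quasi-likelihood test and Benjamini-Hochberg adjustment, with chamber and animal as terms. SEs were derived from the log2 fold change and its F value. The same fit was made for the 8 animals of one library series, the 12 compensated banded animals and, with separate chamber terms for both ages, for the age difference. Levels are CPM scaled by TMM over all libraries, and values per animal used log2(CPM + 0.5). The script was tested on simulated data with 200 changed genes. DESeq2 1.42.0, other filters and scalings, and other sets of animals were alternatives. LV and Spt of one number are from the same animal per the labels. Deviations from the chamber mean correlated at -0.50 to 0.73 between the 2 libraries of an animal, with the own partner closest in 3 of 11. The label of the animal, not these correlations, is the basis of the pairing.

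Genes were named by rule: the 12 largest rises and 12 largest falls among genes called in the same direction in all 11 animals with at least 1 CPM, the 8 largest in each direction also called within one series, up to 4 called members per gene list, and otherwise its 2 most abundant. Symbols starting with LOC, RGD, Mir or AABR were passed over. Genes named beside these (Irx3, Irx4, Irx5, Hcn4, Nptn, Myl7, Msln, Krt19, Wt1, Tbx18, Kcnd2, Mbp, Ccl21, Prox1, Lyve1, Flt4, Postn, Fn1, Myh6, Nppb, Cntn2, Nkx2-5, Gata4, Hand2, Tbx5, Pllp, Syndig1, the 4 further genes without overlap and those of the closing observations) were chosen after their values were seen. Some genes that meet the rule are not reported here. The animals, comparisons, members and lists were chosen with earlier results of these data known. Promoters were matched by symbol for 12 of the 18 genes called in both fits.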

Additional observations from a re-analysis of the deposited data

Results flagged for a closer look

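In the 6 young shams of the comparison the within-animal difference of each named gene, septum minus LV on the log2(CPM + 0.5) scale, was examined for single animals that stand far from the rest. Of 112 genes examined, 8 had such an animal, where about 1 in 20 would by chance. It was Sham-H replicate 5 for 6 of them, the animal whose difference also trended most steeply downward with gene length. Its difference was 0.012 for Rspo1 (others -1.04 to -0.68), -2.10 for Cd4 (others -0.62 to 0.14), 1.04 for Fabp3, a fatty acid carrier (others -0.33 to 0.17), -2.04 for Ece1, which processes endothelin (others -0.07 to 0.82), -0.85 for Cntn2, a Purkinje fibre adhesion molecule (others -0.21 to 0.16), and 1.58 for Nppb (others -0.32 to 0.16). Sham-H replicate 2 stood apart for Hspb7, a small heat shock protein, at -0.45 (others -0.10 to 0.04), and for Atp5a1, an ATP synthase subunit, at -0.34 (others 0.06 to 0.22). No cause was tested.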

How the results depend on the processing

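The 265 calls in the shams became 319 without the replicate block, 477 with DESeq2, 124 with Sham-H replicate 6 kept, 616 in the 7 shams of LV series 2 and Spt series 3 and 656 in a fit with the RV libraries. They fell to 0 with library series as a covariate (1172 at an unadjusted p under 0.05), and to 0 in the 2 shams with both libraries in one series alone (36). With Sham-H replicates 1 and 5 left out together, an alternative added after the data were seen, they were 597. Leaving out 1 animal gave 73 to 658. The count was 73 without Sham-RF replicate 2, 78 without Sham-LF replicate 2, 92 without Sham-H replicate 4, 101 without Sham-LF replicate 3, 103 without Sham-RF replicate 1, 142, 155 and 163 without Sham-H replicates 3, 2 and 7, and 658 without Sham-H replicate 5. Within one series the 23 calls became 147 with DESeq2, 35 with the length trend removed and 7 to 423 with 1 animal left out, lowest without AOB-H replicate 6 (7), PAB-H replicate 7 and Sham-H replicate 7 (8 each) and highest without Sham-H replicate 5. In the banded animals the 57 calls became 24 without the block, 176 with DESeq2, 204 with the length trend removed, 195 in the 6 animals of one series and 30 to 91 with 1 animal left out, lowest without AOB-H replicate 6 and highest without AOB-H replicate 2. The age difference gave 0 calls throughout except 7 with DESeq2. The 6 calls in young shams became 14 without the block, 44 with DESeq2, 10 without a filter, 0 in the 7 shams and 1 to 14 with 1 animal left out, lowest without Sham-H replicates 4 and 7 and highest without Sham-H replicate 5. The 96 in older shams became 145 without the block, 262 with DESeq2, 170 with the length trend removed, 466 in the 7 shams and 1 to 377 with 1 animal left out (lowest without Sham-LF replicate 3, highest without Sham-H replicate 5). Of the 29 genes named by size, 29 kept sign and call without the block and with DESeq2, 0 kept a call with the series covariate or in the 2 shams alone, and leaving out 1 animal left 20 to 29, fewest without Sham-H replicate 4. With the series covariate and in the 2 shams alone all 29 kept their sign. Few animals separate chamber from series in these 2 settings, so the lack of calls there decides little. Over 53 called named genes and their alternatives, 877 of 1214 values kept direction and call, 334 lost the call and 3 changed sign, all in the 2 shams alone: Xirp2 (-0.00877), Tcf21 (0.0707) and Pfkfb2 (-0.0435). Where a cause is not given by the construction of an alternative, the cause was not tested.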

Other observations

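The deposited counts also hold genes outside the lists that were called in the shams and again, with the same sign, in the 6 banded animals of one series, which share no animal with them. They were read after their values were known. Fgf7, a growth factor made by mesenchyme, was higher in the septum by 1.27 in shams and 1.24 in the banded animals (adjusted p = 0.0373 and 0.00362), at mean levels of 0.919 CPM in LV and 2.35 CPM in septum. Crym, encoding a thyroid hormone-binding crystallin, was higher by 0.28 and 0.30 (adjusted p = 0.044 and 0.0322). Ccdc80, a matrix-associated protein, was lower, at -0.47 and -0.34, and Sod3, the extracellular superoxide dismutase, by -0.43 and -0.23. Gldn, which encodes a protein of the nodes of Ranvier made by Schwann cells, was lower, at -0.54 and -0.75.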
